A study of Mus musculus with 3 samples.

Results

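Mt1 and Mt2, the metallothioneins that most mouse tissues can make, were followed through 3 single-cell RNA libraries of the embryonic mouse kidney. They are 2 of the 17864 gene symbols that all 3 count tables list, and they were chosen by name for the rise of Mt1 in nephron epithelium, the pool of early nephron, proximal tubule and distal nephron cells. All cells came from wild-type kidney of the E14.5 embryo, in a mixed strain background of mostly CD-1 with 129. Fluidigm C1, Drop-seq and 10x Chromium each gave 1 library, and the sources used here do not say how many embryos each library pooled. Drop-seq and 10x capture cells in droplets and count molecules by unique molecular identifiers (UMIs), and Drop-seq reads the 3' end of each cDNA. The C1 table holds reads. No treatment, metal exposure or mutant is part of the design, so the comparisons are between cell classes within libraries.

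Metallothioneins are small, cysteine-rich proteins that bind zinc and copper in the cytosol and also take up toxic metals such as cadmium. Their genes are switched on by free zinc through the transcription factor MTF1, which binds metal response elements (MREs) in their promoters, and also by glucocorticoids and oxidative stress. In the adult kidney they are best known from the proximal tubule, where metals filtered by the glomerulus are taken up.

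Mt1 (ENSMUSG00000031765.8) lies on chromosome 8 of build mm10 at 94179082 to 94180327, plus strand, in 3 exons. Mt2 (ENSMUSG00000031762.7) lies next to it at 94172664 to 94173568, on the same strand and also in 3 exons, with 5513 bases between the genes in GENCODE M21. Of the 588 exonic bases of Mt2, 432 overlap Gm45774, an antisense gene that none of the 3 tables lists. No source used here says whether counting used strand, so reads from that gene and from Mt2 cannot be told apart. The longest run of bases that the Mt1-201 and Mt2-201 transcripts share is 20, in transcripts of 549 and 511 bases, and no run of 25 bases is shared.

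The promoters are shown because MREs are the element the family is known for. Each sequence is the 250 bases before the RefSeq start (build GRCm38.p6, the same coordinates as mm10), plus strand, read 5′ to 3′. Capitals mark the MRE cores TGCACNC and TGCGCNC, searched on both strands. The Mt1 sequence covers chr8:94178839-94179088 and the Mt2 sequence chr8:94172368-94172617.
Mt1: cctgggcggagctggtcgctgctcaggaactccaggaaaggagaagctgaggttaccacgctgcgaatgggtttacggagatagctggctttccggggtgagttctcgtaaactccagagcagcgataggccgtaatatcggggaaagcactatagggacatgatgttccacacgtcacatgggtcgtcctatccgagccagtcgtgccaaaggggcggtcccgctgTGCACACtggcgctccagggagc
Mt2: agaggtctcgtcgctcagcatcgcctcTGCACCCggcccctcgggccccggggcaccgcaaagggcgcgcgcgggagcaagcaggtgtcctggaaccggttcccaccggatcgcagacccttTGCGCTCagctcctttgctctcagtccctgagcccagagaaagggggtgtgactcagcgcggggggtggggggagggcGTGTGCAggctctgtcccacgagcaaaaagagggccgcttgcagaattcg

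The Mt1 stretch held 1 MRE core and the Mt2 stretch held 3. With the 50 bases after the start included, the windows held 3 cores in Mt1 and 4 in Mt2. The further Mt1 cores begin 2 and 20 bases after the RefSeq start, so the counts depend on the start used. The Mt2 stretch ends at 94172617, before the GENCODE start of 94172664. The Mt1 stretch ends at 94179088, after the GENCODE start of 94179082. Among all 32851 RefSeq promoter windows of this length, 25.7% held at least 1 core of either kind and 1.97% held 3 or more. The Mt2 stretch also held a match to the antioxidant element TGACNNNGC, a motif that 12.4% of all windows hold and that the Mt1 window does not match. A match of letters is not evidence of binding.

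After filtering, Drop-seq had 1964 cells, 10x 2130 and C1 883, with median counts per cell of 7060 UMIs, 7369 UMIs and 166712 reads. No cell name was shared between libraries. Clusters were named from marker lists from which Mt1 and Mt2 were kept out, as they were from the clustering. Proximal tubule carried 15 of its 16 markers in Drop-seq and in 10x, and 14 in C1. Drop-seq and 10x gave a distal nephron class, with 13 and 16 of its 16 markers. C1 gave none. Distal nephron was the class of the second highest marker score in the ureteric clusters of all 3 libraries. Erythroid cells formed a class only in Drop-seq, and immune cells only in 10x and C1. Levels below are CPM, the counts scaled to a common total per class, and intervals are exact 95% Poisson or binomial intervals that cover counting error only. C1 counts are reads and not molecules, with up to 2195 Mt1 reads in 1 proximal tubule cell. Its intervals of levels, ratios and Mt2 shares are therefore too narrow even for counting error, and gaps between them carry little weight.

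Both genes were highest, among nephron cells, in the tubule segments that had begun to mature, and lowest or nearly so in the cap mesenchyme, the progenitors from which nephrons form. In proximal tubule, Mt1 stood at 217 CPM in Drop-seq (interval 187 to 250.3), 688 CPM in 10x (637 to 743) and 601 CPM in C1 (590.4 to 612). In distal nephron it stood at 98.2 CPM in Drop-seq and 589 CPM in 10x, and in early nephron, the renal vesicle and S-shaped body stages, at 16.4, 62.3 and 59.8 CPM in Drop-seq, 10x and C1. In cap mesenchyme it was at 2.91 CPM in Drop-seq, 4.62 CPM in 10x and 12.8 CPM in C1. Over all cells of a library these 4 classes thus kept 1 order wherever present: proximal tubule, distal nephron, early nephron, cap mesenchyme. Neighbouring intervals did not overlap, but in 10x the proximal lower bound (636.97 CPM) barely cleared the distal upper bound (636.68 CPM). In the C1 cells of the name group E14, treated below, early nephron (18.9 CPM) stood below cap mesenchyme (30.6 CPM).

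**Figure D1:**
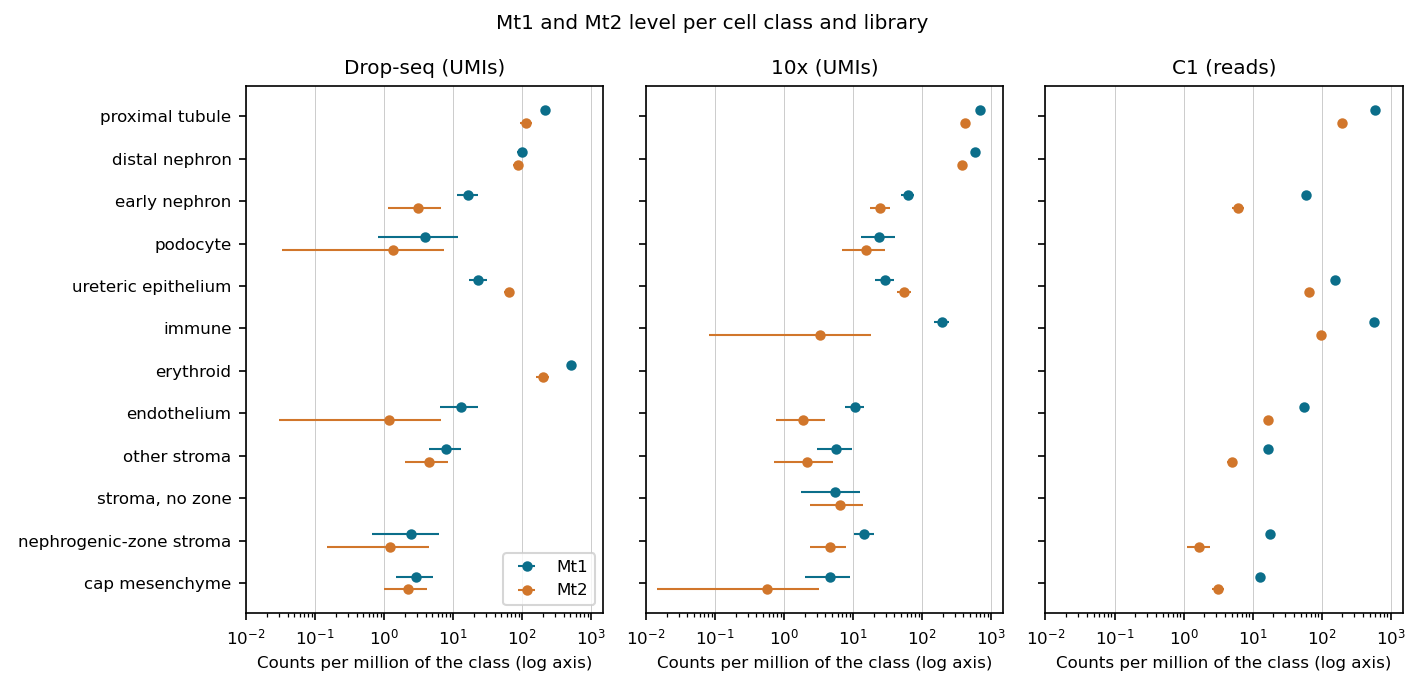
Level of Mt1 (blue) and Mt2 (orange) in each named cell class, in CPM on a log axis, with 1 panel per library and exact 95% Poisson intervals. Classes absent from a library have no point. Proximal tubule stood at 217, 688 and 601 CPM of Mt1 in Drop-seq, 10x and C1, and cap mesenchyme at 2.91, 4.62 and 12.8 CPM.

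Mt2 followed the same order at lower levels. Its level was 115 CPM in Drop-seq, 427 CPM in 10x and 199 CPM in C1 in proximal tubule, and 85.96 CPM in Drop-seq and 387 CPM in 10x in distal nephron. Proximal and distal intervals of Mt2 overlapped in both UMI libraries. In early nephron it stood at 3.08 CPM in Drop-seq, 25.05 CPM in 10x and 6.16 CPM in C1, against 2.18, 0.577 and 3.17 CPM in cap mesenchyme of the same libraries. The early nephron and cap mesenchyme intervals of Mt2 overlapped in Drop-seq, so at that depth Mt2 set the tubule segments apart but not the first nephron stages. Single cells weighed on the other libraries. In 10x early nephron the top cell held 18 of 35 Mt2 UMIs, and without the 5 cells of highest count 5.26 CPM remained. In C1 the top cell held 69 of the 77 Mt2 reads of an early nephron cluster. Likewise, the top cell held 72 of the 80 Mt2 reads of a C1 cap mesenchyme cluster.

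The proximal tubule supplied far more of the message than its share of cells. In Drop-seq its 94 cells held 24.2% of the Mt1 and 18.3% of the Mt2 UMIs. The 109 proximal tubule cells were 5.12% of the kept 10x cells and held 40.9% of its Mt1 and 41.5% of its Mt2 UMIs. In C1, 73 proximal tubule cells (8.27%) held 59.6% of the Mt1 and 65.0% of the Mt2 reads. Nephron epithelium as a whole held 55.9% (Drop-seq), 86.3% (10x) and 65.0% (C1) of the Mt1 counts, and cap mesenchyme held 1.53%, 0.495% and 1.95%.

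The rise over cap mesenchyme, the difference that chose the genes, is given as a description. Nephron epithelium over cap mesenchyme was 29.96-fold for Mt1 in Drop-seq (interval 17.0 to 58.4, from 439 and 12 UMIs), 87.5-fold in 10x (44.3 to 203) and 26.9-fold in C1 (24.3 to 29.9). For Mt2 the ratios were 27.0-fold in Drop-seq (14.1 to 59.7) and 33.9-fold in C1 (27.6 to 41.9). The 10x ratio of Mt2 was 436-fold with an interval of 78.1 to 17254, because cap mesenchyme there held 1 UMI. In a fit across the 15 class sums (edgeR, library as a covariate) the log2 fold change was 5.45 (SE 0.57) for Mt1 and 5.77 (SE 0.80) for Mt2. Of the 9281 genes tested in this contrast, 7.78% passed an adjusted p of 0.05, and nothing is read from that beside these genes. Both ratios were above 1 in 3 of 3 libraries.

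The share of cells with a count followed the level in the UMI libraries, and less closely in C1. Mt1 was counted in 43.6% (Drop-seq), 75.2% (10x) and 71.2% (C1) of proximal tubule cells. Distal nephron had 27.2% in Drop-seq and 47.8% in 10x, and early nephron 12.8%, 26.6% and 32.6% in Drop-seq, 10x and C1. Cap mesenchyme had 2.40% (Drop-seq), 3.98% (10x) and 29.7% (C1), where the median cell carried 165088 reads. In C1 the share intervals of early nephron (22.8 to 43.5%) and cap mesenchyme (22.7 to 37.5%) thus overlapped widely, although the level was 59.8 against 12.8 CPM. Thinned to 50000 reads, these shares were 25.6% and 11.3%. With every cell thinned to 4000 UMIs, or 50000 reads in C1, proximal tubule kept 36.6%, 61.2% and 59.7% and cap mesenchyme 1.44%, 2.22% and 11.3%, so the order was kept at equal depth. No class here is known to lack these genes, so the class of the lowest share stands in for the background of free RNA. That was nephrogenic-zone stroma in Drop-seq (1.49%, median 6763 UMIs), stroma of no named zone in 10x (2.48%, median 5513 UMIs) and cap mesenchyme itself in C1. Cap mesenchyme cells had medians of 6976 UMIs in Drop-seq and 8335 UMIs in 10x. Their share intervals, 1.25 to 4.15% in Drop-seq and 1.73 to 7.69% in 10x, overlapped those of the stand-in (0.309 to 4.30% and 0.681 to 6.24%). Their counts are thus not told apart from the stand-in, and in C1 nothing could be compared. The part of free RNA was not tested.

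Within a class the counts were very uneven. In 10x distal nephron, 72 of 138 cells had no Mt1 UMI and 18 had 10 or more, with up to 63 in 1 cell. In 10x proximal tubule, 27 of 109 cells had none and 17 had 10 or more, with a maximum of 61. No Drop-seq or 10x cap mesenchyme cell had more than 1. The 5 cells of highest count held 47.0% of the Mt1 UMIs of Drop-seq distal nephron, 38.8% of those of 10x distal nephron and 58.6% of the Mt1 reads of C1 proximal tubule. Without those 5 cells, Mt1 stood at 53.8 CPM in Drop-seq distal nephron, 376 CPM in 10x distal nephron and 283 CPM in C1 proximal tubule, each still above the early nephron of its library. The same step per cluster took Mt1 in C1 early nephron clusters from 75.6 to 18.1 CPM and from 35.0 to 5.35 CPM. In C1 cap mesenchyme clusters it took Mt1 from 10.6 to 2.19 CPM and from 14.9 to 3.43 CPM.

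Haemoglobin, which follows blood and free RNA, stood lower in the tubule segments than in cap mesenchyme. The dissociation genes, which follow handling, had a lower sum in proximal tubule than in cap mesenchyme. The part of blood, free RNA and handling in the levels of Mt1 and Mt2 was not tested. Haemoglobin stood at 667 CPM in Drop-seq proximal tubule and 2787 CPM in distal nephron, against 5230 CPM in cap mesenchyme. In 10x it stood at 55.2 CPM in proximal tubule and 630.5 CPM in distal nephron, against 1401 CPM in cap mesenchyme. In C1 it stood at 1.59 CPM in proximal tubule but 2573 CPM in early nephron, against 6.27 CPM in cap mesenchyme, and its part in the C1 early nephron levels was not tested. The summed level of genes known to respond to tissue dissociation (Fos, Jun, Hspa1a and others) was 3279 CPM in Drop-seq, 3076 CPM in 10x and 2854 CPM in C1 proximal tubule, against 3485, 3370 and 3596 CPM in cap mesenchyme. The list has 25 genes, of which 24 are listed for all 3 libraries, and each sum covers those its library lists. The median mitochondrial share of proximal tubule cells was 2.59% (Drop-seq) and 4.84% (10x), against 2.71% and 4.29% in cap mesenchyme cells, and it was 5.52% in 10x distal nephron. The part of this difference in 10x in the levels was not tested.

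The ureteric epithelium, the branching tree that becomes the collecting ducts, held both genes at an intermediate level and, in the UMI libraries, turned their balance round. Its Mt2 level was 64.0 CPM in Drop-seq (53.7 to 75.7), 55.2 CPM in 10x (43.5 to 69.0) and 66.0 CPM in C1 (62.1 to 70.1). Its Mt1 level was 23.1 CPM in Drop-seq (17.1 to 30.5) and 29.0 CPM in 10x (20.7 to 39.5), but 155 CPM in C1 (149 to 161). Mt2 was thus within a narrow range across libraries, while Mt1 differed widely between C1 and the UMI libraries.

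Mt2 made up 73.5% of the Mt1 and Mt2 counts of ureteric epithelium in Drop-seq (66.5 to 79.7), 65.5% of those in 10x (56.1 to 74.1) and 29.9% of those in C1 (28.4 to 31.4). In nephron epithelium it made up 40.4% (Drop-seq), 38.4% (10x) and 23.8% (C1). Mt2 thus outnumbered Mt1 in ureteric epithelium in both UMI libraries and not in C1. One Drop-seq ureteric cell held 45 Mt2 UMIs. Without the ureteric cell of the highest sum in each library, the Mt2 share was 70.0% (Drop-seq), 63.8% (10x) and 29.3% (C1). The mean z-score of the distal nephron markers was 0.93 in the C1 ureteric cluster, close to the 1.05 of its ureteric markers. It was 0.59 and 1.04 in the ureteric clusters of Drop-seq, beside 1.23 and 1.57 for ureteric markers. In those of 10x it was 0.69 and 0.91, beside 1.47 and 1.45. C1 gave no distal nephron class, and the part of distal nephron cells in its ureteric levels was not tested. In C1 ureteric cells Mt1 stood at 125 CPM in the 41 cells of the name group HT and 181 CPM in the 38 of the name group E14, groups that no source used here explains. These shares are of counts as deposited and are not scaled for length. The transcripts compared above are of similar length, at 549 bases for Mt1 and 511 bases for Mt2. Over all annotated transcripts the exons of Mt1 span 1246 bases, which is the whole gene, and those of Mt2 588 bases. The part of length in these shares was not tested.

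**Figure D2:**
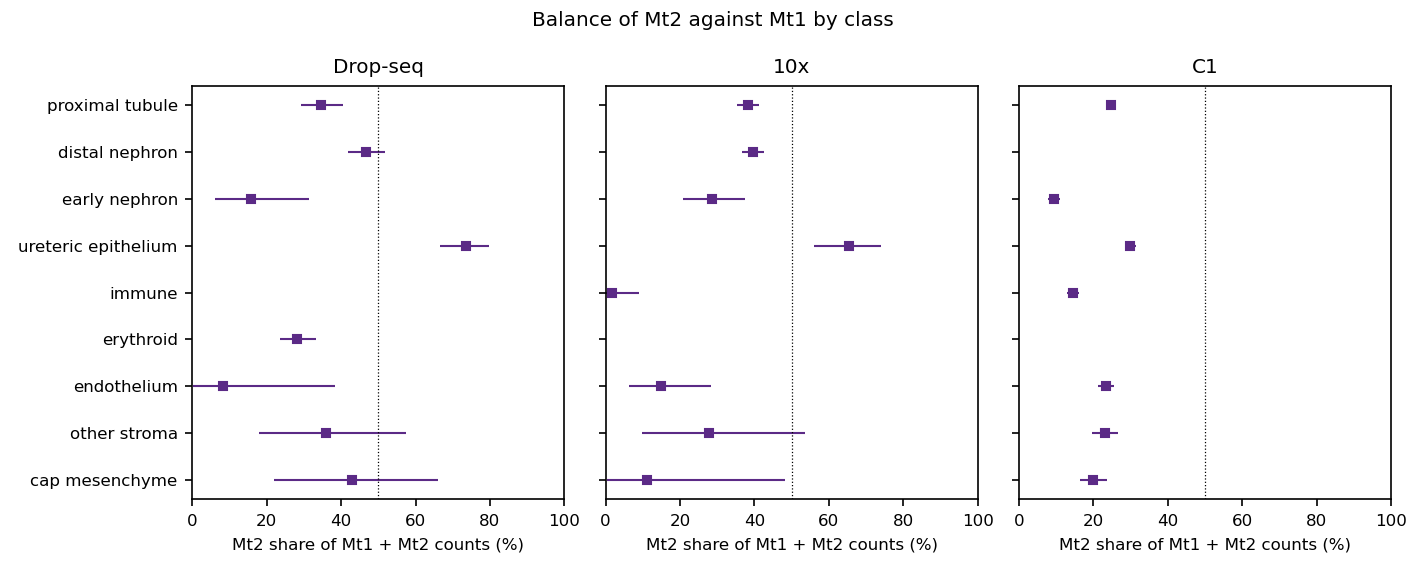
Share of Mt2 in the summed Mt1 and Mt2 counts by class, in percent with exact 95% binomial intervals, 1 panel per library, with a dotted line at equal counts. Ureteric epithelium lies right of the line in Drop-seq (73.5%) and 10x (65.5%) and left of it in C1 (29.9%).

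Ureteric cells split into a main cluster led by Calb1, Ret and Gata3 and a small one led by Krt19, Fxyd4 and Krt7 in both UMI libraries. Mt2 stood at 132 CPM in the 16 Krt19 cells of Drop-seq, against 46.7 CPM in the main cluster, and at 88.5 CPM in the 37 Krt19 cells of 10x, against 47.8 CPM in the main cluster. The share of cells with Mt2 was 31.2% and 24.3% in the Krt19 clusters and 30.2% and 24.8% in the main clusters of Drop-seq and 10x. One of the Krt19 cells of Drop-seq held 45 of the 57 Mt2 UMIs of its cluster.

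Both genes passed the test in ureteric epithelium against cap mesenchyme, a contrast that shares the cap mesenchyme sums with the one that chose the genes. Low cap mesenchyme sums favour that choice, so the p-values and directions here are not independent of it. The log2 fold change was 3.17 (SE 0.57) for Mt1, with an adjusted p of 0.00517 by edgeR's quasi-likelihood test, and 4.67 (SE 0.79) for Mt2, with an adjusted p of 0.00419 by the same test. Both were higher in 3 of 3 libraries, and 15.8% of the 9281 genes tested passed. In the same contrast 7 of the 24 dissociation genes tested rose and 2 fell. The summed level of the list genes that each library lists was 3450 CPM in Drop-seq, 3466 CPM in 10x and 3082 CPM in C1 ureteric epithelium, against 3485, 3370 and 3596 CPM in cap mesenchyme. Without the C1 library the adjusted p of Mt1 was 0.119, and without Drop-seq it was 0.125 for Mt1 and 0.112 for Mt2. The p-values measure the spread that library and class leave over these 3 libraries, not a spread between kidneys.

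Endothelium, the lining of the vessels, showed Mt1 with little Mt2 in the UMI libraries. Mt1 stood at 13.0 CPM in Drop-seq, 10.8 CPM in 10x and 55.7 CPM in C1, and Mt2 at 1.18, 1.89 and 17.0 CPM. Mt1 exceeded cap mesenchyme in 3 of 3 libraries, by 1.89 on the log2 scale (SE 0.58, adjusted p 0.0450 by edgeR). Here too the cap mesenchyme sums are those of the contrast that chose the genes. Neither the p-values nor the directions are independent of that choice. Without the 5 C1 cells of highest count, the C1 levels were 14.04 CPM for Mt1 and 0.655 CPM for Mt2. The call rests on C1 and Drop-seq, since the adjusted p was 0.454 with a log2 fold change of 1.22 without C1 and 0.244 without Drop-seq. For Mt2 the log2 fold change was 1.87 (SE 0.82) with an adjusted p of 0.138 by edgeR, higher in 2 of 3 libraries. The background share of genes passing in this contrast was 22.7%.

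Stroma, the interstitial cells, did not pass for either gene. Its contrast also shares the cap mesenchyme sums with the one that chose the genes. Mt1 stood at 5.46 CPM in Drop-seq, 9.64 CPM in 10x and 17.3 CPM in C1, and Mt2 at 3.0, 3.96 and 3.78 CPM. Against cap mesenchyme the log2 fold change was 0.61 (SE 0.58) for Mt1, with an adjusted p of 0.547 by edgeR, and 0.44 (SE 0.85) for Mt2, with an adjusted p of 0.793 by edgeR, while 15.1% of all genes passed. Both were higher in 3 of 3 libraries, and the 10x ratios were 2.09 (0.991 to 5.08) for Mt1 and, against 1 cap mesenchyme UMI, 6.86 (1.12 to 283) for Mt2. In 10x, 34 of the 56 stromal Mt1 UMIs came from 1 nephrogenic-zone cluster of 100 cells, of which 7% had a count. The highest count in 1 cell of this cluster was 20 of the 34 Mt1 UMIs and 7 of its 12 Mt2 UMIs. Without the 5 cells of highest count its Mt1 level fell from 32.0 to 2.05 CPM. Drop-seq stroma also carried the most haemoglobin of the coarse classes, at 10365 CPM, and its part in the stromal counts was not tested.

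**Figure D3:**
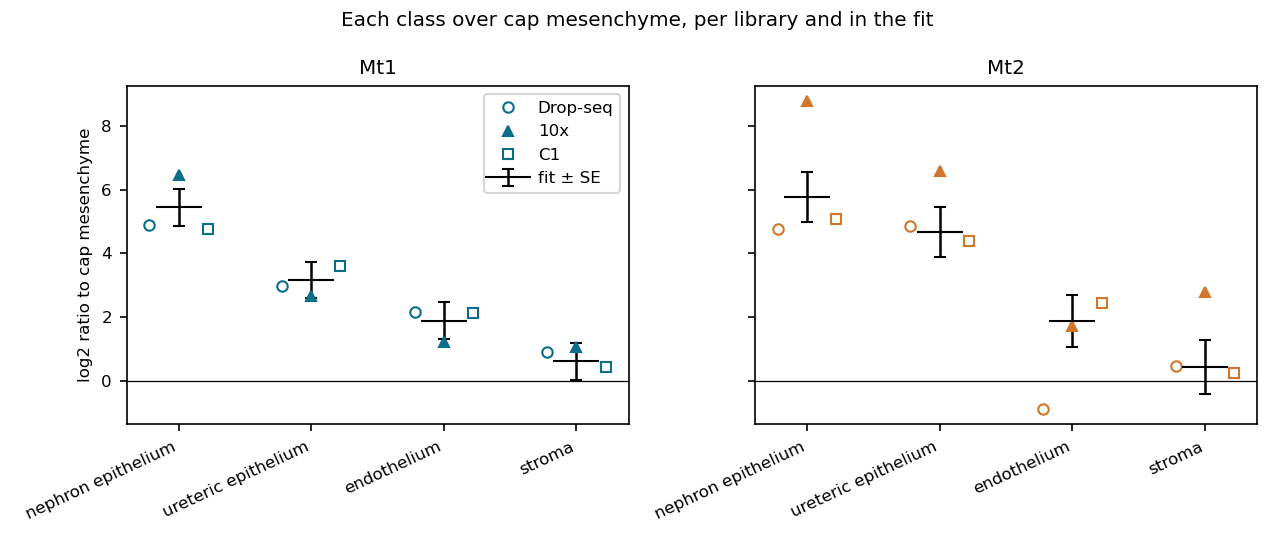
Log2 ratio of each class to cap mesenchyme for Mt1 (left) and Mt2 (right), per library (symbols) and in the edgeR fit (bar with SE). Nephron epithelium, by which the genes were chosen, is highest for both genes (5.45 and 5.77), and endothelium is the one class where a library, Drop-seq, falls below 0 for Mt2.

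Blood cells stood outside the nephron order. The 60 erythroid cells of Drop-seq, precursors of red cells with haemoglobin at 365879 CPM, had the highest levels of that library, at 505 CPM of Mt1 (444 to 573) and 198 CPM of Mt2 (160.4 to 242). Their 245 Mt1 UMIs were 31.2% of those of the library. Mt1 was counted in 55.0% of the erythroid cells and Mt2 in 35.0%. The intervals of the erythroid cells and of proximal tubule did not overlap for either gene. Immune markers had the second highest score in this cluster (mean z-score 1.99, beside 2.79 for erythroid markers), Drop-seq gave no immune class, and the part of immune cells in these levels was not tested.

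Immune cells carried Mt1 nearly alone in 10x. The 55 immune cells there, led by S100a8, S100a9, Lyz2 and C1qb, held 59 Mt1 UMIs and 1 Mt2 UMI, an Mt2 share of 1.67% (0.0422 to 8.94). Mt1 stood at 195 CPM and was counted in 40.0% of these cells, and Mt2 in 1.82%. The 13 immune cells of C1, led by macrophage genes such as C1qb, Mrc1 and Lyve1, had 574 CPM of Mt1 and 97.1 CPM of Mt2, an Mt2 share of 14.47% (12.8 to 16.2). In 10x the Mt2 share of immune cells lay below the interval of every nephron class, and in C1 below those of proximal tubule and ureteric epithelium but above that of early nephron (9.34%, 7.73 to 11.2).

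Podocytes, the filter cells of the glomerulus and themselves nephron derivatives, stayed low. Mt1 stood at 3.97 CPM in Drop-seq and 24.0 CPM in 10x, and Mt2 at 1.32 and 15.4 CPM. In 10x the 5 podocytes of highest count held 92.9% of the Mt1 UMIs, and without them the level was 1.84 CPM.

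The pair was counted in the same proximal and distal tubule cells more often than their shares alone would give. In 10x proximal tubule 60.6% of cells had both genes, against 49.0% if the genes were counted independently. The corresponding shares were 27.7% against 18.1% in Drop-seq and 49.3% against 39.0% in C1. In distal nephron 35.5% of 10x cells had both, against 21.8% if independent, and 16.4% against 6.52% in Drop-seq. In early nephron both were counted in 2.22% of cells against 0.426% if independent in Drop-seq, 7.26% against 2.58% in 10x and 4.65% against 4.54% in C1, from 4, 9 and 4 cells.

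Over nephron epithelium as a whole, Mt2 was counted in 53.3% of the cells with Mt1 and 8.49% of those without in Drop-seq. It was counted in 68.5% against 11.6% in 10x and 50% against 15.2% in C1. Thinning to 4000 UMIs left 45.7% against 6.22% in Drop-seq and 58.6% against 7.04% in 10x, and thinning to 50000 reads left 47.0% against 13.6% in C1. Pearson's r of the log2 levels over these cells was 0.57 in Drop-seq (487 cells), 0.73 in 10x (371 cells) and 0.59 in C1 (159 cells). These cells share a library and pool classes of different level, so the coefficients describe the cells and carry no test.

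In ureteric epithelium both genes were counted in 9.71% of cells against 4.85% if independent in Drop-seq, 7.14% against 4.65% in 10x and 22.8% against 19.2% in C1. After thinning, the share with both was 1.15% against 1.39% if independent in Drop-seq, from 2 cells, and 1.48% against 1.32% in 10x, also from 2 cells. In C1 it was 22.7% against 15.8%. At this depth no excess of double cells was detectable in the ureteric epithelium of the UMI libraries. Pearson's r over the cells was 0.28 (Drop-seq), 0.16 (10x) and 0.46 (C1).

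**Figure D4:**
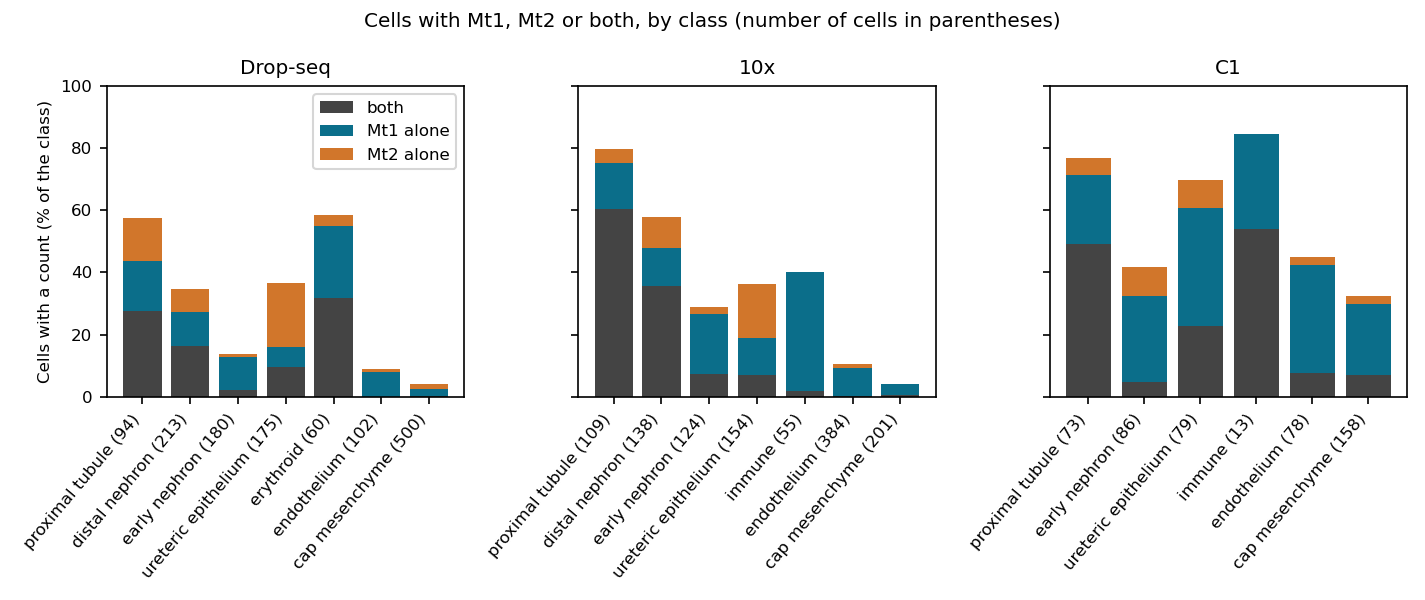
Share of cells of each class, in percent, with a count of both genes (grey), of Mt1 alone (blue) or of Mt2 alone (orange), stacked, 1 panel per library. In 10x, 60.6% of proximal tubule cells had both genes, the immune bar was nearly all Mt1 alone (21 of the 22 immune cells with a count of either gene), and Mt2 alone was the largest part of the ureteric bar.

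Among tubule cells of 10x, those without a count of the division genes Mki67 and Top2a, which mark cycling cells, carried the most metallothionein. In 10x distal nephron, Mt1 stood at 211 CPM in the 70 cells with Mki67 or Top2a and 1161 CPM in the 68 with neither, and Mt2 at 129 and 777 CPM. The mean was 1.99 Mt1 UMIs per cell with a division gene and 7.47 per cell without, although the cells without were shallower (median 9706 UMIs with and 5970 UMIs without). The share of cells with Mt1 was 47.1% with and 48.5% without a division gene, and the share with Mt2 was 35.7% with and 55.9% without. In 10x proximal tubule, Mt1 stood at 423 CPM with a division gene and 939 CPM with neither.

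Drop-seq levels ran in the same direction with less support. Mt1 stood at 59.6 CPM with and 305 CPM without a division gene in distal nephron, and at 173 and 357 CPM in proximal tubule. Without the 5 cells of highest count in each set, Mt1 was at 105 CPM with and 659 CPM without in 10x distal nephron, and at 233 and 572 CPM in 10x proximal tubule. In Drop-seq the same step left 34.4 CPM with and 68.1 CPM without in distal nephron, and 93.4 CPM with and 71.3 CPM without in proximal tubule. The step takes a larger part of the smaller set. In Drop-seq that was the set without a division gene (32 against 62 proximal tubule cells, 46 against 167 distal nephron cells). In 10x proximal tubule it was the set with one (43 against 66 cells).

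Early nephron and ureteric epithelium were mixed. In 10x early nephron, Mt1 stood at 72.6 CPM with (57.8 to 90.0) and 15.7 CPM without (4.29 to 40.3), and in Drop-seq at 15.9 and 21.3 CPM, from 28 and 4 UMIs. In ureteric epithelium Mt1 stood at 21.7 CPM with (15.4 to 29.6) and 30.8 CPM without (14.8 to 56.7) in Drop-seq, and at 20.7 CPM with (12.3 to 32.8) and 43.2 CPM without (27.0 to 65.3) in 10x, lower with a division gene in both, with overlapping intervals. Mt2 there stood at 63.9 CPM with and 64.7 CPM without in Drop-seq, and at 54.1 CPM with and 56.9 CPM without in 10x. A missing count does not show that a cell was out of cycle, and with 1 library per platform these contrasts have no test. In C1 nearly all cells had a count of either division gene (69 of 73 proximal tubule cells), so the split was not made there.

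**Figure D5:**
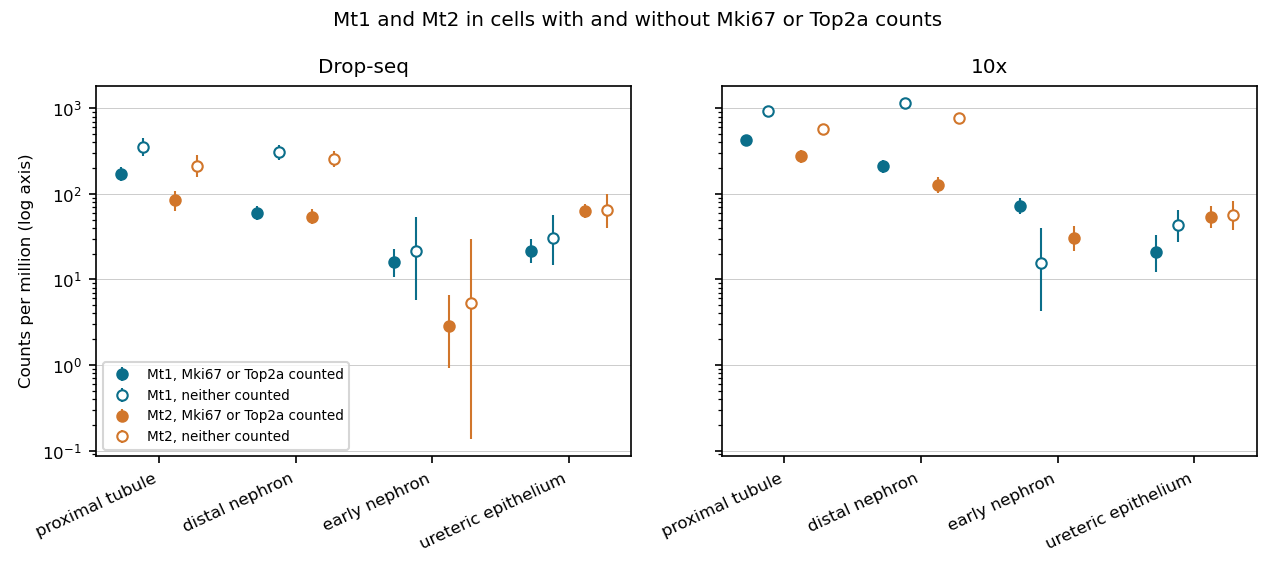
Level of Mt1 (blue) and Mt2 (orange) in cells with a count of Mki67 or Top2a (filled) and with neither (open), in CPM on a log axis with exact 95% Poisson intervals, for 4 epithelial classes in the UMI libraries. Open points lie above filled ones in proximal tubule and distal nephron (1161 against 211 CPM of Mt1 in 10x distal nephron). A set with no count has no point.

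The C1 cells fall into the name groups HT and E14, and the levels differed between them. Mt1 in proximal tubule stood at 484 CPM in HT cells and 675 CPM in E14 cells, and Mt2 at 167 and 219 CPM. In cap mesenchyme Mt1 stood at 3.36 CPM in 102 HT cells and 30.6 CPM in 56 E14 cells. Proximal tubule was above cap mesenchyme within both name groups. Mt2 in cap mesenchyme ran the other way, at 3.87 CPM in HT cells and 1.83 CPM in E14 cells. Early nephron did too, with Mt1 at 66.5 CPM in HT cells and 18.9 CPM in the 16 E14 cells, below the 30.6 CPM of E14 cap mesenchyme.

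The other metallothioneins of the cluster were all but silent. Mt3, known from brain, had 41 UMIs in Drop-seq, 16 in 10x and no read in C1, where 3 reads would be 0.0175 CPM. Mt4, known from stratified epithelium, had 1 UMI in Drop-seq and none in 10x or C1. Their promoter windows held 1 MRE core each, and Mt3 lies 24935 bases and Mt4 40050 bases from Mt1.

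Zinc handling genes were read in the same fit, with levels over the symbols shared by all tables. Mtf1, the zinc sensor that drives metallothionein genes, was not called in any contrast. Its level in nephron epithelium was 21.7 CPM in Drop-seq, 19.3 CPM in 10x and 17.5 CPM in C1, against 16.8, 17.3 and 15.9 CPM in cap mesenchyme (log2 fold change 0.17, edgeR adjusted p 0.781). Slc30a1, the zinc exporter of the plasma membrane and a known MTF1 target, stood at 10.5, 17.4 and 22.2 CPM in nephron epithelium of Drop-seq, 10x and C1, against 1.18, 4.33 and 16.5 CPM in cap mesenchyme (log2 fold change 1.34, SE 0.42, edgeR adjusted p 0.0614).

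Of the 18 zinc genes tested, 2 rose in nephron epithelium and none fell, while 4.58% of all genes tested rose and 3.20% fell. The genes of all lists were kept out of the clustering, so none left the test as a variable gene. The other variable genes did leave it, so the shares over all genes lack them. List counts and these shares are thus not on equal terms, here and below, and no enrichment is read from them. Slc39a5, a zinc importer of epithelia, stood at 38.4 CPM in Drop-seq, 96.7 CPM in 10x and 37.9 CPM in C1, against 0.885, 3.71 and 1.92 CPM in cap mesenchyme (log2 fold change 5.06, SE 0.61, edgeR adjusted p 0.000225). Slc39a8, an importer of zinc, manganese and cadmium, stood at 28.1, 36.7 and 31.8 CPM, against 6.20, 3.71 and 2.51 CPM (log2 fold change 3.01, SE 0.41, edgeR adjusted p 0.000298). Both genes that rose bring metal into cells. The median log2 fold change of the 18 genes was 0.28, beside -0.05 over all genes tested.

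In the other contrasts the zinc genes moved little. In ureteric epithelium none rose and Slc39a6, an importer, fell by 0.83 on the log2 scale (edgeR adjusted p 0.0135), where 7.88% of all genes rose and 7.90% fell. In endothelium Slc39a10, another importer, rose and Slc39a6 fell, where 11.2% of all genes rose and 11.5% fell. In stroma Slc39a13, an importer of intracellular membranes, rose, where 5.92% rose and 9.18% fell. The medians were 0.21 in ureteric epithelium, 0.44 in endothelium and 0.40 in stroma, beside -0.07, -0.06 and -0.10 over all genes.

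Of 21 copper and iron genes tested, none was called in nephron epithelium, where 4.58% of all genes rose and 3.20% fell. In ureteric epithelium, where 7.88% of all genes rose, 1 rose, Atox1, the copper chaperone (log2 fold change 1.06, edgeR adjusted p 1.13e-05). Atox1 also rose in endothelium (0.82, edgeR adjusted p 4.36e-05), where 3 of the 21 genes rose and 2 fell, beside 11.2% and 11.5% of all genes. Among them were Hmox1, haem oxygenase (3.0), and Tfrc, the transferrin receptor, which fell by 0.81. In stroma 2 rose and 2 fell, beside 5.92% and 9.18% of all genes, among them Hmox1 (1.54) and Cox17, a copper chaperone of mitochondria, which fell by 0.49.

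Of 24 redox genes, 3 rose and none fell in nephron epithelium, where 4.58% of all genes rose and 3.20% fell: Gsr, glutathione reductase (log2 fold change 0.52), Sod2, the mitochondrial superoxide dismutase (0.69), and Sod3, the secreted one. Sod3 was low, at 4.05 CPM in Drop-seq, 12.4 CPM in 10x and 8.83 CPM in C1, against 0.295, 1.85 and 0.0349 CPM in cap mesenchyme. Nfe2l2, which encodes the oxidative stress factor NRF2, was called higher in ureteric epithelium (1.10), endothelium (1.13) and stroma (0.95), with 5, 7 and 4 of the 24 genes higher and 1, 1 and 4 lower, beside 7.88%, 11.2% and 5.92% of all genes higher and 7.90%, 11.5% and 9.18% lower. In ureteric epithelium its target Gclc, of glutathione synthesis, rose by 1.43.

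Of 9 glucocorticoid genes tested, Nr3c1, the glucocorticoid receptor, rose in all 4 contrasts, by 1.63 in nephron epithelium, 1.03 in ureteric epithelium, 1.69 in endothelium and 1.58 in stroma. Its level in nephron epithelium was 36.2 CPM in Drop-seq, 41.7 CPM in 10x and 44.6 CPM in C1, against 13.6, 12.4 and 13.5 CPM in cap mesenchyme (edgeR adjusted p 0.00110). The 4 contrasts share those cap mesenchyme sums. Cdkn1c, a cell cycle inhibitor, fell by 1.04 in nephron epithelium and rose by 1.42 in stroma. Sgk1, a glucocorticoid-induced kinase, rose by 4.83 in endothelium (edgeR adjusted p 3.93e-07), at 225 CPM in Drop-seq, 192 CPM in 10x and 169 CPM in C1, against 9.15, 4.33 and 7.36 CPM in cap mesenchyme. Its edgeR adjusted p was 0.832 in nephron epithelium, 0.945 in ureteric epithelium and 0.549 in stroma, and the difference between contrasts was not tested. Of the 24 dissociation genes tested, 2 rose and 2 fell in nephron epithelium, beside 4.58% and 3.20% of all genes. Their median log2 fold change there was -0.13. In the other contrasts more of them rose, 7 in ureteric epithelium, 7 in endothelium and 5 in stroma, while 2, 2 and 3 fell, beside 7.88%, 11.2% and 5.92% of all genes higher and 7.90%, 11.5% and 9.18% lower. The medians were 0.32, 0.19 and 0.26. The part of these genes in the calls of Mt1 and Mt2 was not tested.

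The genes whose levels over the 15 class sums were most like those of Mt1 were ranked among 6487 genes of at least 20 CPM. Pearson's r with Mt1 was 0.97 for Ly6a, a surface antigen, 0.95 for Mpc2, of the mitochondrial pyruvate carrier, and 0.95 for Ggt1, the brush border enzyme that splits glutathione. Dpp4, a brush border peptidase, Myo6, a myosin, Stx7, of endosomes, Atp6ap2, of the proton pump, and Idh1, cytosolic isocitrate dehydrogenase, followed at 0.93 to 0.94. Mt2 ranked 13th for Mt1, at 0.91.

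Among the genes most like Mt2 were Lama1, a laminin chain (r 0.98), and 1700011H14Rik (0.97). Stard10, a lipid carrier, Kif12, a kinesin, Emx2, a homeobox factor, Dpp4 and Rab3ip, a Rab exchange factor, followed at 0.96 to 0.97. Mt1 ranked 49th for Mt2, and Dpp4 was the one gene on both lists. The sums share 3 libraries and 5 classes, and no test was made.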

How the data were processed

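The deposited tables of whole-number counts per gene and cell were used, UMIs for Drop-seq and 10x and reads for C1, and the normalized tables were not used. The authors aligned with Bowtie2 2.2.7 (Drop-seq, C1) and Cell Ranger 1.3.0 (10x) on mm10, per the submitters' processing notes; no source used here names the counting tool. Kept cells had at least 500 genes and at most 20% mitochondrial counts, and Scrublet doublets were removed (17 in 10x, 11 in C1; the Drop-seq run called 0.255%, was taken as failed, and none was removed). C1 lists no mitochondrial gene. Library totals were 17751487 and 17465306 UMIs and 171283962 reads. Each library was clustered alone (scanpy 1.11.5, 2000 variable genes, 30 components, Leiden resolution 1, Python 3.11.15). Clusters were named from 13 marker lists.

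Counts were summed per library and class (5 classes in 3 libraries, 15 sums, 8 residual degrees of freedom). edgeR 4.0.16 (R 4.3.3) tested them with TMM, filterByExpr and library as a covariate, two-sided, with Benjamini-Hochberg adjustment over the 9281 genes, of 12124 fitted, used neither to cluster nor to name cells. Genes of the lists could not serve for clustering, so they stayed in however variable they were, unlike other genes. DESeq2 1.42.0 was an alternative. The script was tested on simulated data. Named genes were Mt1 to Mt4, Mtf1, up to 4 called genes per list and contrast with 1 direction in all libraries, and the 8 genes most correlated with each member, of which 1 is not reported here. Slc30a1 was named after its values were seen. Libraries are not replicate kidneys, and the numbers of the replicates pair nothing. The genes and all lists were chosen with earlier results of these data known.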

Additional observations from a re-analysis of the deposited data

Results flagged for a closer look

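In 3 results the libraries disagreed in direction, and since each platform has 1 library these differences were not tested. Mt2 in endothelium against cap mesenchyme had a log2 ratio of -0.89 in Drop-seq, from 1 endothelial and 9 cap mesenchyme UMIs, but 1.71 in 10x and 2.43 in C1. The log2 ratio of Mt2 over Mt1 counts in ureteric epithelium was 1.47 in Drop-seq and 0.93 in 10x, but -1.23 in C1. In early nephron, the log2 ratio of Mt1 in cells with Mki67 or Top2a over cells without was -0.42 in Drop-seq and 2.21 in 10x, with 4 UMIs in the cells without in each library.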

How the results depend on the processing

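Of 104 recomputed log2 fold changes of Mt1 and Mt2, 91 kept their direction and their call (for nephron epithelium, stayed within the spread between libraries); the cause of the other changes was not tested. With no library term (no replicate block; the libraries carry the same number and pair nothing), Mt1 in ureteric epithelium (3.24, adjusted p 0.0976) and endothelium (1.98, adjusted p 0.276) lost the call. With 1000 variable genes, so did Mt1 in ureteric epithelium (1.89, adjusted p 0.108) and endothelium (1.32, adjusted p 0.101), and Mt1 in stroma reversed (-0.20). With no filter on low counts, Mt1 in endothelium lost it (1.88, adjusted p 0.0808). Leaving out 1 library each gave 4.81 to 5.67 for Mt1 and 4.93 to 6.17 for Mt2 in nephron epithelium, 2.64 to 3.35 and 4.52 to 4.91 in ureteric epithelium, 0.50 to 0.76 and 0.25 to 0.68 in stroma, and 1.22 to 2.13 and -0.38 to 2.11 in endothelium. Of these, Mt2 in endothelium was called without 10x (2.11, adjusted p 0.00971) and reversed without C1 (-0.38).

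The 722 genes called in nephron epithelium became 222 without 10x, 1176 without C1, 139 without Drop-seq, 50 with no library term and 1409 with 1000 variable genes. Without 10x, without Drop-seq and with no library term, 588, 300 and 177 of 1464 were called in ureteric epithelium, 373, 353 and 16 of 1401 in stroma and 930, 801 and 364 of 2109 in endothelium, and z-score classes gave 845 in stroma. Naming each cell by its own marker scores, an alternative chosen after seeing the data like those that leave out cells of highest count, gave an Mt2 share in ureteric epithelium of 72.0% (Drop-seq), 65.0% (10x) and 23.5% (C1). Low counts limit Mt2 in cap mesenchyme (9 UMIs in Drop-seq, 1 in 10x) and in endothelium (1 UMI in Drop-seq, 7 in 10x).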
